A study of Mus musculus with 2 samples.

Results

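The microRNAs of the red cell locus on mouse chromosome 11, Mir451a, Mir451b and Mir144, were examined in microRNA libraries of calf muscle (gastrocnemius). They are 3 of 2202 annotated miRNA genes in the count tables, taken by matching the Ensembl gene identifiers to these symbols in GENCODE M21. The matching rule uses no counts, but the genes were picked with earlier results of these data known. The 2 libraries come from male B6CASTF1/J mice aged 25 days, an F1 hybrid whose other parent, beside a laboratory strain, is the wild-derived CAST, with no treatment or genotype contrast named. The labels number them as biological replicates 1 and 2 and name different males, but both carry the same donor identifier. Whether the libraries are separate animals cannot be told from the labels, and the spread between them may be technical. The tissue is a whole muscle, so its blood and vessels are part of the sample.

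Mir144 and Mir451a are made from a shared primary transcript that the erythroid factor GATA1 switches on as red cell precursors mature, and miR-451 is among the most abundant miRNAs of mature red cells. Most miRNA precursors are cut by Dicer. The short stem of the miR-451 precursor is instead cut by AGO2 and then trimmed, so that the mature strand runs into the loop. In red cell precursors miR-451 represses Ywhaz, which encodes a 14-3-3 protein that holds back the oxidative stress factor FoxO3, and miR-144 represses Nfe2l2, which encodes the antioxidant factor NRF2. In other tissues these miRNAs are commonly read as a sign of blood in the sample.

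The mature sequences show which RNAs the counts could hold. They are from RefSeq (GRCm38.p6), which held all 3 genes, and are printed 5′ to 3′ with the seed, bases 2 to 8, in capitals. The seed is the part that chooses targets.
miR-451a: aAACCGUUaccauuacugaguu
miR-144-5p: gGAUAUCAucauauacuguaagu
miR-144-3p: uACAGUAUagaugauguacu
miR-451b: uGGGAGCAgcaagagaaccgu
The 4 seeds differ from each other, and none of them occurs in another of the 1679 mature miRNA names in the RefSeq table. Bases 2 to 7 of miR-144-3p are shared with 1 other miRNA, miR-101a-3p. Counts are per gene, so Mir144 adds up both of its arms and the share of each arm was not measured.

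The hairpins show why the strand of a read matters here. Mir144 lies at chr11:78073005-78073070 on the plus strand (mm10), Mir451a 99 bases further on at chr11:78073170-78073241 on the same strand, and Mir451b at exactly the span of Mir451a on the minus strand. No other miRNA gene lies within 50 kb. None of the 3 lies inside an annotated gene other than its own overlap partner, and the nearest protein-coding gene, Eral1, ends 135 bases past Mir451a on the minus strand. Capitals mark the mature miRNAs.
Mir144: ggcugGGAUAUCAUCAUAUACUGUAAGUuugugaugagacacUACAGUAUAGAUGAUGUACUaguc
Mir451a: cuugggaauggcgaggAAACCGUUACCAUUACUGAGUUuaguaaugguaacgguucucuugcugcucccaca
Mir451b: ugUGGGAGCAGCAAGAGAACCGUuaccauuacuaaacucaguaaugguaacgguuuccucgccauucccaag
The 72-base hairpins of Mir451a and Mir451b are reverse complements of each other. Folded with RNAfold, the Mir451a hairpin had 1 loop, at bases 35 to 38, and the mature miR-451a occupied bases 17 to 38, so it held the whole loop. Both arms of Mir144 lay outside its loop at bases 31 to 36. Among 1559 mature miRNAs of hairpins with a single predicted loop, 2 (0.128%) held the whole loop, miR-451a and miR-468-5p. The Mir451a hairpin was predicted to have 30 base pairs and the Mir144 hairpin 27, where the median over 938 hairpins was 27. These pairs are counted over the whole annotated hairpin. The length of the shorter precursor stem that AGO2 cuts was not measured.

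**Figure D1:**
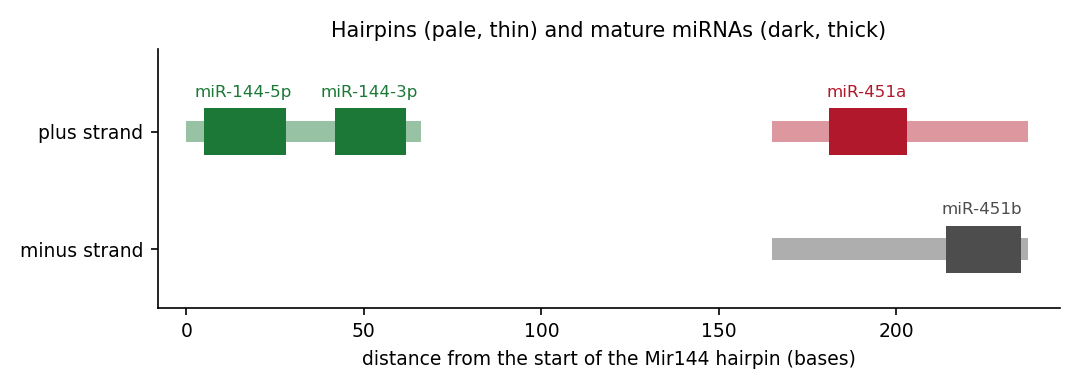
Map of the locus, with the distance from the start of the Mir144 hairpin in bases on the x axis and the strands on the y axis. Pale bars are hairpins and dark bars are mature miRNAs. The hairpins of Mir451a and Mir451b occupy the same 72 bases on opposite strands, 99 bases beyond Mir144.

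Reads came from the Mir451a strand alone. On the strand of the gene, Mir451a had 201 counts in replicate 1 and 587 in replicate 2. Mir451b, the antisense hairpin, had 0 counts in both libraries, where 3 counts of the total, the limit that a count of 0 allows, correspond to 2.01 and 1.48 CPM (CPM, a gene's share of all gene counts scaled to 1000000). Against that limit of 3 counts per library, Mir451a was at least 67.0-fold higher than Mir451b in replicate 1 and at least 195.7-fold higher in replicate 2. The column for the opposite strand mirrored this, with 201 and 587 counts under Mir451b and 0 under Mir451a. Mir144, which has no gene on its opposite strand, had 59 and 134 counts on its own strand and 0 on the other.

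The strand assignment of miR-451a reads rests on few bases, because the hairpin is nearly its own reverse complement. Bases 2 to 17 of the mature miR-451a, 16 in all, occur also on the opposite strand of the hairpin, and the full 22 bases differ from the best-matching stretch there by 4 mismatches. How the aligner treated shortened or mismatched miR-451a reads was not tested. Over the 2138 genes with no miRNA gene on the opposite strand, 99.998% of counts in replicate 1 (exact 95% interval 99.997 to 99.999) and 99.9986% in replicate 2 (99.998 to 99.999) lay on the strand of the gene, with 22 counts on the wrong strand in each library. For the Mir451a locus the share was 100% in both, with exact lower bounds of 98.2% and 99.4% that its smaller counts allow.

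One-sided reads were common where miRNA genes face each other. Of 32 such pairs, 23 had at least 10 counts over both libraries and both strands, and in 14 of these, Mir451a and Mir451b among them, the lower gene had none. The lower gene held over 1% of the pair's counts in 3 pairs, most in the pair of Mir24-1 and Mir3074-1, where the higher gene held 85.5%. Mir486 and Mir3107, another pair abundant in red cells and muscle, had counts on both strands, 1227 and 1372 for Mir486 and 43 and 25 for Mir3107. How far the mature sequences of this pair match both strands was not compared. Reads that fit several places are in no gene row, so this split may cover only part of the pair's reads. The Mir451a pair was the 17th largest by the counts of its higher gene.

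**Figure D2:**
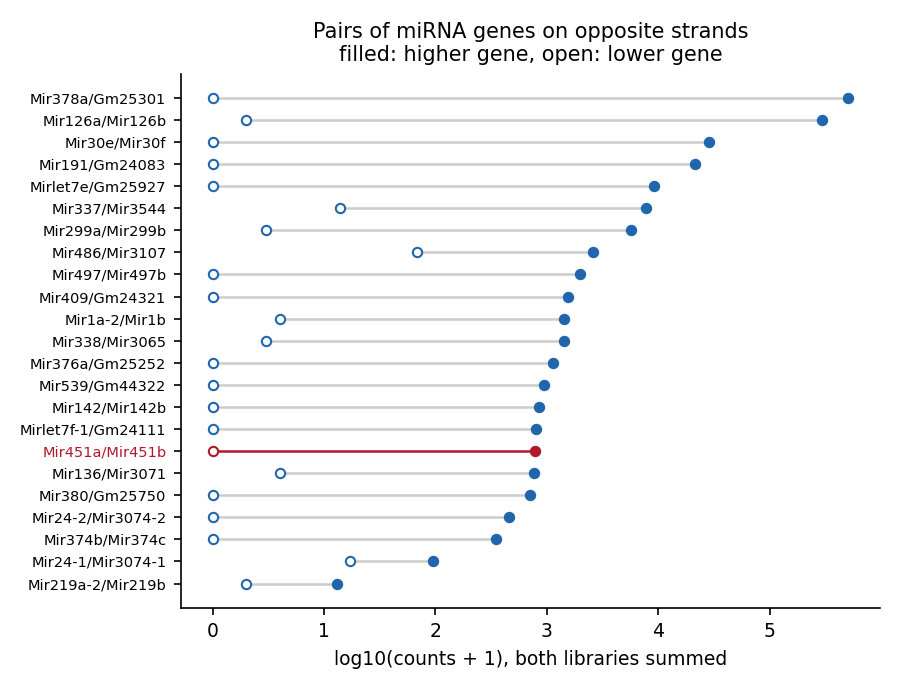
Counts of the 23 pairs of miRNA genes on opposite strands with at least 10 counts, as log10(counts + 1) summed over both libraries (x axis), 1 pair per line. Filled points are the higher gene and open points the lower gene. Mir451a and Mir451b, in red, are 1 of 14 pairs whose lower gene had 0 counts.

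The red cell miRNAs were of middling abundance in this muscle. Mir451a stood at 135 CPM in replicate 1 (exact 95% interval 117 to 155) and 289 CPM in replicate 2 (266 to 314), a mean of 212 ± 109 CPM (SD, n = 2). Mir144 stood at 39.6 CPM (30.1 to 51.0) and 66.1 CPM (55.4 to 78.2), a mean of 52.8 ± 18.7 CPM (SD, n = 2). In both genes replicate 2 was the higher library, and the intervals of the libraries, which cover counting error only, did not overlap. How many of all genes had intervals without overlap was not counted. Differences beyond counting error were common, with 38.3% of 313 tested genes past an adjusted p of 0.05 (exact binomial test). Together the members made up 0.0174% of gene counts in replicate 1 and 0.0355% in replicate 2. By mean CPM Mir451a ranked 125 and Mir144 ranked 192 among the 570 genes with at least 1 count. In the single libraries the rank of Mir451a was 138 and 110, and that of Mir144 was 200 and 178. The striated muscle list, the check of the labelled tissue, held 5.43% and 4.77% of gene counts, nearly all from Mir206 at 53367 and 46543 CPM. Its slow-fibre members Mir499 and Mir208b were present too, while Mir133c was at 0 in both libraries. Reads that fit several loci are in no gene row, so the Mir1a and Mir133a genes, with several copies in the list, may be undercounted. The level of Mir206 beside theirs is therefore no measure of their relative abundance.

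**Figure D3:**
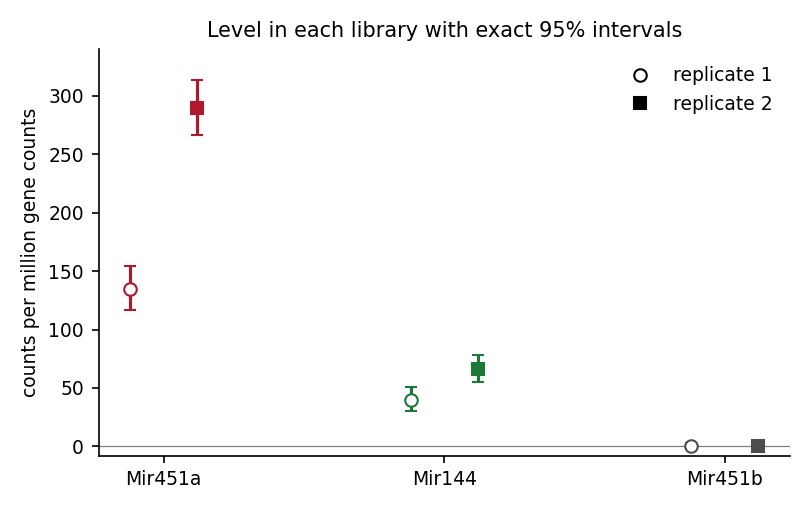
Level of each gene in CPM (y axis) in replicate 1 (open circles) and replicate 2 (filled squares), with exact 95% intervals for counting error. Mir451a reads 135 and 289, Mir144 reads 39.6 and 66.1, and Mir451b is at 0 in both libraries.

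The order of levels around the members is that of mean CPM over 2 libraries and was not tested. The 3 genes next above Mir451a were Mir30b (230 ± 84.9 CPM), Mir203 (228 ± 21.6 CPM) and Mir125b-1 (216 ± 4.79 CPM), and the 3 next below were Mirlet7c-1 (208 ± 36.8 CPM), Mir136 (205 ± 118 CPM) and Mir380 (202 ± 21.8 CPM), each as SD with n = 2. Around Mir144 stood Mir410, Mir370 and Mir138-1, from 57.7 to 57.4 CPM, and Mir1983, Mir199b and Mir665, from 48.9 to 47.5 CPM. The range of the 2 libraries overlapped that of the member for all 12 of these neighbours. They were chosen as nearest in mean CPM, and each mean lay inside the member's range. The overlap was therefore fixed by the choice and says nothing of the order.

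Within each library Mir451a gave more reads than Mir144. The ratio of counts was 3.41 in replicate 1 (exact 95% interval 2.54 to 4.63) and 4.38 in replicate 2 (3.63 to 5.33). The intervals overlap. The ratio in replicate 2 over that in replicate 1 was 1.29 (0.893 to 1.84; Fisher's exact test, two-sided, p = 0.172), an interval that takes in no difference and a rise of over 1.5-fold. This comparison needs no scaling between libraries. It compares reads of different mature RNAs, and how evenly the library preparation captured them was not tested.

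Both genes with counts were higher in replicate 2. Mir451a was 2.16-fold higher (log2 ratio 1.11, exact 95% interval 0.88 to 1.35; exact binomial test, Benjamini-Hochberg adjusted p = 2.53e-22). Mir144 was 1.68-fold higher (log2 ratio 0.75, interval 0.30 to 1.22; exact binomial test, adjusted p = 0.00262). Mir451b, with no counts, was not tested, so 2 of 3 members passed the minimum of 10 summed counts. Calls of this kind were common between the libraries, with 38.3% of the 313 tested genes past an adjusted p of 0.05, 19.8% higher and 18.5% lower in replicate 2, and the 2 calls among 2 tested members are read against that share. By size, Mir451a had the 16th and Mir144 the 32nd highest log2 ratio of the 313. Among 68 other tested genes whose summed counts lay within a factor of 2 of those of Mir451a, 3 had a ratio at least as high, Mir101a, Mir136 and Mir208b, and none had one as far below 0. Of 58 such genes around Mir144, 2 had a ratio at least as high, Mir137 and Mir199b, and 5 had one at least as far from 0 in either direction.

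The test weighs counting error only and compares 2 libraries, not conditions. With the spread between the libraries added, neither gene passed (edgeR exact negative binomial test, adjusted p = 0.238 for Mir451a and 0.986 for Mir144, unadjusted p = 0.00445 and 0.0882). The spread came from these libraries themselves, over 267 genes, and so includes the differences under test. In a bulk sample, a change in the number of red cells and a change in miRNA per cell cannot be told apart.

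**Figure D4:**
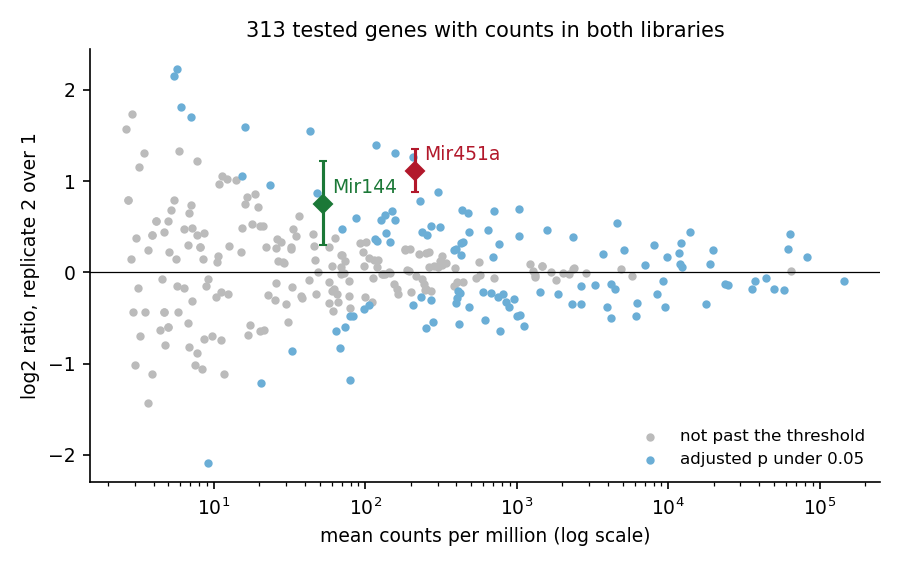
Log2 ratio of replicate 2 over replicate 1 (y axis) against mean CPM on a log scale (x axis) for the 313 tested genes. Blue points passed an adjusted p of 0.05 and grey points did not. Mir451a at 1.11 and Mir144 at 0.75 are drawn with exact 95% intervals, and both intervals lie above 0.

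Among the other miRNAs abundant in red cells, calls went in both directions. Of the 14 list members with a gene row, 13 were tested. Replicate 2 was the higher library for 2 of them and the lower for 4, while 7 missed the threshold (exact binomial test, adjusted p under 0.05). Calls in either direction stood at 38.3% over all tested genes (19.8% higher, 18.5% lower), so these counts are near that background. Their median log2 ratio was -0.02, where the 313 tested genes had a median of 0.05. The summed level of the list was 3763 CPM in replicate 1 and 3706 CPM in replicate 2. Many of these genes are also transcribed outside red cells. Mir486, in the Ank1 gene of both muscle and red cells, led the list by reads placed at a single locus, with 823 and 676 CPM. It was lower in replicate 2 (log2 ratio -0.27, exact binomial test, adjusted p = 7.48e-06). Mir15a and Mir16-1 come from a shared transcript that restrains cell division. Mir15a was higher at 0.46 and Mir16-1 lower at -0.22 on the log2 scale. Mir16-1 and Mir16-2 encode the same mature miR-16, as Mir92-1 and Mir92-2 do miR-92a and Mir103-1 and Mir103-2 do miR-103, and reads that fit several loci are in no gene row, so these genes are undercounted. Mir16-2 was lower at -0.54, Mir3107 lower at -1.22 and Mir107 higher at 0.33. Mir185, Mir92-1, Mir15b and Mir25, with at least 195 counts in each library, did not pass, at log2 ratios of 0.12, 0.06, -0.13 and -0.02.

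The interval of Mir451a lay above those of 10 of the 13 tested list members. The exceptions, Mir92-2, Mir103-2 and Mir363, had at most 29 summed counts and wide intervals. The interval of Mir144 lay above those of 7 of the 13 and overlapped the others, Mir15a, Mir107 and Mir185 included. The intervals cover counting error only. By size, Mir451a and Mir144 had the 16th and 32nd highest log2 ratio of all 313 tested genes. How many of all tested genes had intervals below theirs was not counted, so these numbers set nothing apart in this list. These differences between genes were not tested beyond their intervals.

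Markers of other blood cells, of vessels and of muscle fibres gave these values beside the members. Of the 9 leukocyte and platelet symbols 8 had a gene row and 6 were tested. Mir223, of myeloid cells and platelets, was higher in replicate 2 at a log2 ratio of 0.51 (225 and 318 CPM), and Mir142, of blood cells in general, was higher at 0.44 (200 and 270 CPM). The lymphocyte miRNA Mir150 was lower at -0.47, as were Mir155 at -0.29, Mir342 at -0.64 and Mir146 at -0.56. All 6 passed the exact binomial test at an adjusted p under 0.05, as did 38.3% of all 313 tested genes. With the spread between the libraries added, none of the 6 passed (edgeR exact negative binomial test). The summed level of the list went from 4120 CPM in replicate 1 to 3238 CPM in replicate 2, its median log2 ratio was -0.38, and Mir142b was at 0. The endothelial gene Mir126a was higher at 0.17. In the striated muscle list, 7 of 10 genes were tested, with a median log2 ratio of 0.69 beside 0.05 over all 313 tested genes. Reads at several loci are missing from this list. The miRNAs of slow myosin genes were higher in replicate 2, Mir208b at 1.31, above Mir451a, and Mir499 at 0.69, near Mir144. Mir206 was lower at -0.19 and Mir1a-2 at -0.20, and 3 genes missed the threshold (exact binomial test, adjusted p under 0.05). The summed level of this list was 54271 CPM in the first library and 47741 CPM in the second. The part of blood, vessel or fibre types in the members' ratios was not tested.

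Of 4 miRNAs known to fall as red cells mature, 1 was higher in replicate 2, 1 was lower and 2 missed the threshold. Over all 313 tested genes 19.8% were higher and 18.5% lower, and 4 genes are too few to be told from that share. The median log2 ratio of the list was 0.36, beside 0.05 over all tested genes. Mir221 and Mir222, which repress the stem cell factor receptor Kit, had log2 ratios of 0.22 and 0.72 that did not pass (exact binomial test, adjusted p = 0.0688 and 0.118). Mir222 had 22 and 49 counts, so its interval of -0.03 to 1.52 is wide. The list's other members, Mir223 and Mir155, are those given among the leukocyte genes.

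**Figure D5:**
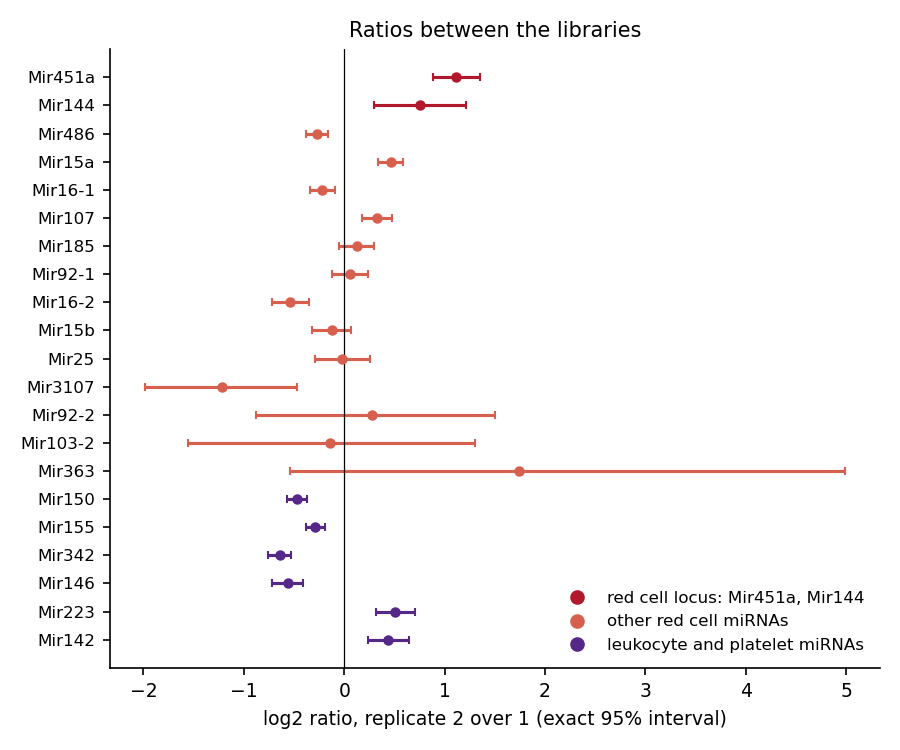
Log2 ratio of replicate 2 over replicate 1 (x axis) with exact 95% intervals for the tested genes of the red cell locus, the other red cell miRNAs, and the leukocyte and platelet miRNAs, 1 gene per line. Mir451a at 1.11 lies right of 10 of the 13 other red cell miRNAs with no overlap of intervals. The intervals cover counting error only, and the same count over all tested genes was not made.

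The 5 tested genes whose ratio between the libraries was nearest to that of Mir451a were all sparse. They were Mir8112, Mir5121, Mir92b, Mir450-1 and Gm49347, within 0.11 of it on the log2 scale and with between 12 and 57 summed counts. Of these, Mir92b alone passed the exact binomial test (15 and 42 counts, adjusted p = 0.0408). The likeness is over 2 libraries only and describes nothing beyond them.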

How the data were processed

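The authors deposited raw read counts per miRNA gene for each library, on mm10 with the GENCODE M21 annotation, per the file headers of the accompanying descriptions. For the aligner, trimming and mismatch settings: not given in the sources used here. From the values, the 3 columns count reads on either strand, on the gene's own strand and on its opposite strand. The own-strand column was used. Gene counts were 1491341 in replicate 1 and 2028332 in replicate 2. Reads at several loci (69.8% and 71.8% of all reads) are in no gene row. The mature miR-451a and miR-144 sequences matched no other gene on the same strand among 141767 M21 transcripts. The rest of the genome was not searched, and the fit of reads from CAST alleles was not analysed here.

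Libraries were scaled by TMM (edgeR 4.0.16, R 4.3.3) and compared by an exact two-sided binomial test (SciPy 1.17.1), with Benjamini-Hochberg adjustment over all 313 genes with at least 10 summed counts and a threshold of 0.05. The step was run on simulated counts with known changes and counting error only. That simulation holds no further spread between libraries, so it does not show how the test behaves under the spread seen here. With 1 group, no quasi-likelihood contrast exists. Intervals are exact 95% intervals (Clopper-Pearson, or conditional for the ratio of ratios). Intervals and the floor of 3 counts cover counting error only. They treat each read as a separate molecule, so any copies made by PCR would leave them too narrow. Structures are minimum free energy predictions (RNAfold 2.7.2). Named genes were the members, list members by level, 3 neighbours in level on either side and the 5 nearest in ratio. Genes at a like depth with a higher ratio were named after their values were seen. The members and lists were chosen with earlier results of these data known. Of the lists' symbols, Mir486b and Mir146a were not among the gene rows. Whether these genes stand there under another symbol was not checked.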

Additional observations from a re-analysis of the deposited data

How the results depend on the processing

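In the column without strand, reads where miRNA genes overlap go unassigned. Mir451a then fell from 212 to 0 CPM, so that its ratio between the libraries, its ratio to Mir144 and the change of that ratio gave no value. With all reads of a library as the denominator, the mean levels were 43.2 reads in 1000000 for Mir451a and 10.7 for Mir144. With the spread between the libraries added (edgeR exact negative binomial test), the log2 ratios of 1.11 and 0.75 no longer passed, and 0 genes were higher and 0 lower, against 62 and 58 by counting error. At an unadjusted p under 0.05, 12 were higher and 3 lower. Without replicate 1 or 2, Mir451a ranged from 135 to 289 CPM, Mir144 from 39.6 to 66.1 CPM and the log2 ratio of Mir451a to Mir144 from 1.77 to 2.13. Under DESeq2 size factors (DESeq2 1.42.0), plain totals and no filter on counts, both members' log2 ratios kept their side of the threshold, from 1.10 to 1.11 for Mir451a and from 0.74 to 0.75 for Mir144. Mir451b had no counts under any setting, and depth left it untested. The 59 counts of Mir144 in replicate 1 leave its log2 ratio an interval of 0.30 to 1.22.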

Other observations

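Mir101a, the only gene in the RefSeq table whose mature miRNA shares bases 2 to 7 with miR-144-3p, had 97 and 346 counts, or 65.0 and 171 CPM. Its log2 ratio of replicate 2 over replicate 1 was 1.40 (exact 95% interval 1.07 to 1.74; exact binomial test, adjusted p = 5.78e-19), and it did not pass with the spread between the libraries added (edgeR exact negative binomial test, adjusted p = 0.107). Its level was above that of Mir144 in both libraries, where Mir144 had 39.6 and 66.1 CPM. The intervals of the ratios of Mir101a and Mir144 (0.30 to 1.22) overlap.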
